A study of Mus musculus with 8 samples.

Results

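Of the 28692 genes in a single-cell count matrix of mouse tumor endothelium, 7 that encode surface or secreted proteins of lymphatic vessels were followed: Lyve1, Pdpn and Thy1 at the cell surface, and Reln, Mmrn1, Fgl2 and Ptx3 as secreted products. They were chosen by name, and all 7 were present in the matrix. Lymphatic endothelial cells (LEC) and blood endothelial cells (BEC) had been sorted from MT-ret melanoma, a transplantable tumor of RET oncogene origin, grown from tumor fragments on the flank of 10 C57BL/6N mice, 10000 cells of each type. All animals carried the tumor and no treatment, sex or age is given, and no tumor-free group is analysed here. Each sort has 4 libraries in the labels, from a droplet 3′ kit whose primers tag every captured transcript with a unique molecular identifier. The cell names gave the sort and no library or animal, so each sort was 1 sample, nothing was tested between the sorts, and no p-value is given.

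Lymphatic endothelium takes up interstitial fluid and leukocytes through thin-walled capillaries and passes them on through collecting vessels. LYVE1 is a hyaluronan receptor on lymphatic capillaries, and podoplanin (Pdpn) is a sialylated mucin-like protein that binds CLEC-2 on platelets and helps keep blood and lymph apart. THY1 is a GPI-anchored adhesion protein that also marks fibroblasts and, in mice, T cells and neurons. Reelin (Reln) is a secreted matrix glycoprotein first known from neuronal migration, multimerin 1 (Mmrn1) is an EMILIN family matrix protein also stored in platelets, FGL2 is a fibrinogen-like protein with a membrane-bound prothrombinase form and a soluble form that binds an Fc receptor, and PTX3 is a long pentraxin of innate immunity.

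The LEC sort held 4407 cells and 59273049 counts, with a median of 11000 counts per cell (5288 to 49210). The BEC sort held 3228 cells and 71304111 counts, with a median of 19416 counts per cell (6968 to 99171). Clusters drawn without the 7 genes named 3512 cells of the LEC sort LEC-like (79.7%) and 2764 cells of the BEC sort BEC-like (85.6%), while the LEC sort also held 369 melanocytic-like cells (8.37%) and the BEC sort 26 LEC-like cells. All 11 genes of a lymphatic list without the 7, such as Prox1 and Flt4, reached 10 CPM in LEC-like cells. CPM are counts scaled to the total of the cells summed. The same list served to name the clusters, so this is no separate check of the label. In the melanocytic-like cells of the LEC sort, 10 of the 11 reached 10 CPM too. The sorts shared 34 cell barcodes. The deposited counts rose in steps: in genes seen in 0.2% to 2% of cells, nonzero entries of the LEC sort were 1, 2, 3 and 4 in 29.4%, 24.4%, 25.3% and 17.1% of cases and 5 in only 1.06%, and in the BEC sort 39.2%, 23.6%, 21.7% and 11.3%, with 1.09% at 5. A count was therefore not taken as 1 molecule, and the 95% intervals of levels and ratios, given in brackets, were widened for these steps. Bracketed intervals of shares of cells were not widened. How the steps arose was not tested, and the intervals cover counting error only.

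All 7 genes were at least 2-fold higher in the LEC sort, as were 11.7% of the 8307 genes that reached 10 CPM in either sort. Their median log2 ratio was 6.67, against 0.10 over all genes tested. Over all cells of each sort, Lyve1 stood at 1713 CPM in LEC against 4.73 CPM in BEC, and Pdpn at 372 CPM against 1.85 CPM. The proteins used to gate the sorts are not given in the sources used here, so for these surface genes a difference between the sorts cannot be told apart from the gate. Thy1 differed least, at 337 CPM (329 to 345) in LEC against 8.27 CPM (7.23 to 9.42) in BEC, a ratio of 40.7 (35.6 to 46.8). Among the secreted products, Ptx3 had the highest ratio, 262 (177 to 407), with 246 CPM in LEC against 0.940 CPM (0.613 to 1.38) in BEC. Fgl2 stood at 927 CPM in LEC against 9.21 CPM in BEC, a ratio of 101 (88.6 to 115). Reln stood at 182 CPM against 1.09 CPM, and Mmrn1 at 751 CPM against 6.37 CPM. When LEC-like cells were set against BEC-like cells, each from its own sort, the ratios were larger. Reln reached 1186 (484 to 4002), Ptx3 712 (382 to 1513) and Thy1 294 (209 to 429).

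The genes lie on separate chromosomes except for one pair. In GRCm38 coordinates with GENCODE M21 gene models, Lyve1 spans chr7:110850607-110863239 on the minus strand with 6 exons, Pdpn chr4:143267431-143299564 on the minus strand with 6 exons and Thy1 chr9:44043384-44048579 on the plus strand with 4 exons. Reln spans chr5:21884454-22344702 on the minus strand with 65 exons and Fgl2 chr5:21372642-21378374 on the plus strand with 2 exons. Mmrn1 spans chr6:60924976-60989378 on the plus strand with 8 exons and Ptx3 chr3:66219910-66225805 on the plus strand with 3 exons. Fgl2 overlaps Ccdc146 on the other strand, which had 392 counts in the LEC sort and 71 in the BEC sort, and Ptx3 overlaps Veph1, with 65 and 4 counts. Whether the counting used strand is not stated, while Fgl2 and Ptx3 themselves had 54923 and 14607 counts in the LEC sort.

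Upstream sequences are shown for 3 of the secreted genes, because Ptx3 and Fgl2 had the widest ranges among the 5 larger LEC-like clusters and Reln had the most CpG sites of the 5 genes matched. They are the 250 bases before the RefSeq gene start in GRCm38.p6, read 5′ to 3′ on the gene's strand, with capitals for matches to a searched motif. The RefSeq table held 5 of the 7 genes, Ptx3, Fgl2, Reln, Pdpn and Mmrn1.
Fgl2 (chr5:21372423-21372672, plus strand): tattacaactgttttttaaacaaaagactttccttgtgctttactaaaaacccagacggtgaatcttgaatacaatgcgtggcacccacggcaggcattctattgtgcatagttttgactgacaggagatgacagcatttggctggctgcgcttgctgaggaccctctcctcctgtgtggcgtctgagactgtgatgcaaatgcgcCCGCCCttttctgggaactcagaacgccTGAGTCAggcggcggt
Ptx3 (chr3:66219637-66219886, plus strand): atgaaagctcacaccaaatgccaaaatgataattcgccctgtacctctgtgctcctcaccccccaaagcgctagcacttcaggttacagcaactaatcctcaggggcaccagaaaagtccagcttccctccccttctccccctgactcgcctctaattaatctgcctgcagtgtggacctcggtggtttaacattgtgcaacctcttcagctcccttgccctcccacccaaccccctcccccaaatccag
Reln (chr5:22344706-22344955, minus strand): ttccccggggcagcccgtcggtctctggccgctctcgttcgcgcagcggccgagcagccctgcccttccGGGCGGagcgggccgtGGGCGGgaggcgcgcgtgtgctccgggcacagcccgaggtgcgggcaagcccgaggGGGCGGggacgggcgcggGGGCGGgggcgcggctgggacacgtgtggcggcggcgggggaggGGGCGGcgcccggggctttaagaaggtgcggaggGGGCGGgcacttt
Each motif was searched on both strands, and its share is that of 32851 promoters of the same length. AP-1 was searched as TGANTCA and occurred in 6.75% of them. The GC box was searched as GGGCGG and occurred in 32.7%. A TATA box, searched as TATAAA, occurred in 12.4%, and a forkhead motif, searched as TGTTTAC, in 3.17%. The NF-kB consensus occurred in 3.90%. The Fgl2 window held 1 AP-1 match, TGAGTCA, 16 to 10 bases before the RefSeq start, and 1 GC box read on the other strand as CCGCCC. The GENCODE model of Fgl2 starts at 21372642, inside this window, so the AP-1 match lies within that gene model and not upstream of it. The Reln window held 6 GC boxes and 37 CpG sites, more CpG sites than 97.8% of promoters. The Ptx3 window had no match and 4 CpG sites. A match describes letters in the window and is not evidence of a bound site.

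Within the LEC-like cells the 7 genes were not equally widespread. Every cell was thinned at random to 5000 counts, and no cell was shallower. Lyve1 was then seen in 94.0% of LEC-like cells (93.2% to 94.8%) and in 0.832% of BEC-like cells, and Mmrn1 in 92.0% and 0.687%. Fgl2 was seen in 86.7% of LEC-like and 0.796% of BEC-like cells, Pdpn in 68.4% and 0.181%, and Thy1 in 59.3% and 0.579%. Reln was seen in 48.2% (46.6% to 49.9%) and 0.109%, and Ptx3 in 35.6% (34.1% to 37.3%) and 0.181%. Cluster 7, which held 379 cells of the BEC sort, stayed unnamed and is not among the BEC-like cells. Yet 9 of 10 blood endothelial markers were seen in at least 50% of its cells. After thinning, Fgl2 was seen in 8.97% of those 379 cells. Before thinning the LEC-like shares were 96.0% for Lyve1, 95.9% for Mmrn1, 90.5% for Fgl2, 77.4% for Pdpn, 68.5% for Thy1, 59.3% for Reln and 42.5% for Ptx3, at a median of 10380.5 counts, and the BEC-like shares were 0.253% to 2.28%, at a median of 19426. A cell without a count may still express the gene.

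Relative to its mean, the spread within LEC-like cells was widest for Ptx3 and narrowest for Mmrn1, while Lyve1 had the largest SD, 8.99 counts, and Reln the smallest, 1.94 counts. Thinned Ptx3 had a median of 0, a 95th percentile of 7 and a highest value of 27 counts, and 61.4% of its counts lay in the top 10% of cells. Mmrn1 had a median of 4, a 95th percentile of 13 and a highest value of 27, with 26.7% of its counts in that group. Lyve1 had a median of 10, a 95th percentile of 28 and a highest value of 65. Reln had a median of 0 and a 95th percentile of 5, Pdpn 2 and 8, Thy1 1 and 8, and Fgl2 5 and 17.

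The excess squared coefficient of variation, the variance beyond Poisson divided by the squared mean, was 3.59 for Ptx3, 1.55 for Reln and 1.35 for Thy1. It was 0.895 for Pdpn, 0.645 for Fgl2, 0.548 for Lyve1 and 0.415 for Mmrn1. Thus 3 genes reached 1, and so did 87.1% of the 5640 genes tested, whose median was 3.66. When the spread given by the count steps was taken off, only Ptx3 stayed above 1, at 2.93, and 16.2% of genes did. Because sparse genes score higher, each gene's value with the steps kept was also set beside genes within 2-fold of its mean. Ptx3 exceeded 98.1% of 971 such genes and Thy1 91.4% of 640, while Mmrn1 exceeded 65.2% of 250 and Pdpn 73.8% of 588. Between these, Lyve1 exceeded 86.0% of 107, Fgl2 85.2% of 203 and Reln 80.1% of 1077.

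**Figure D1:**
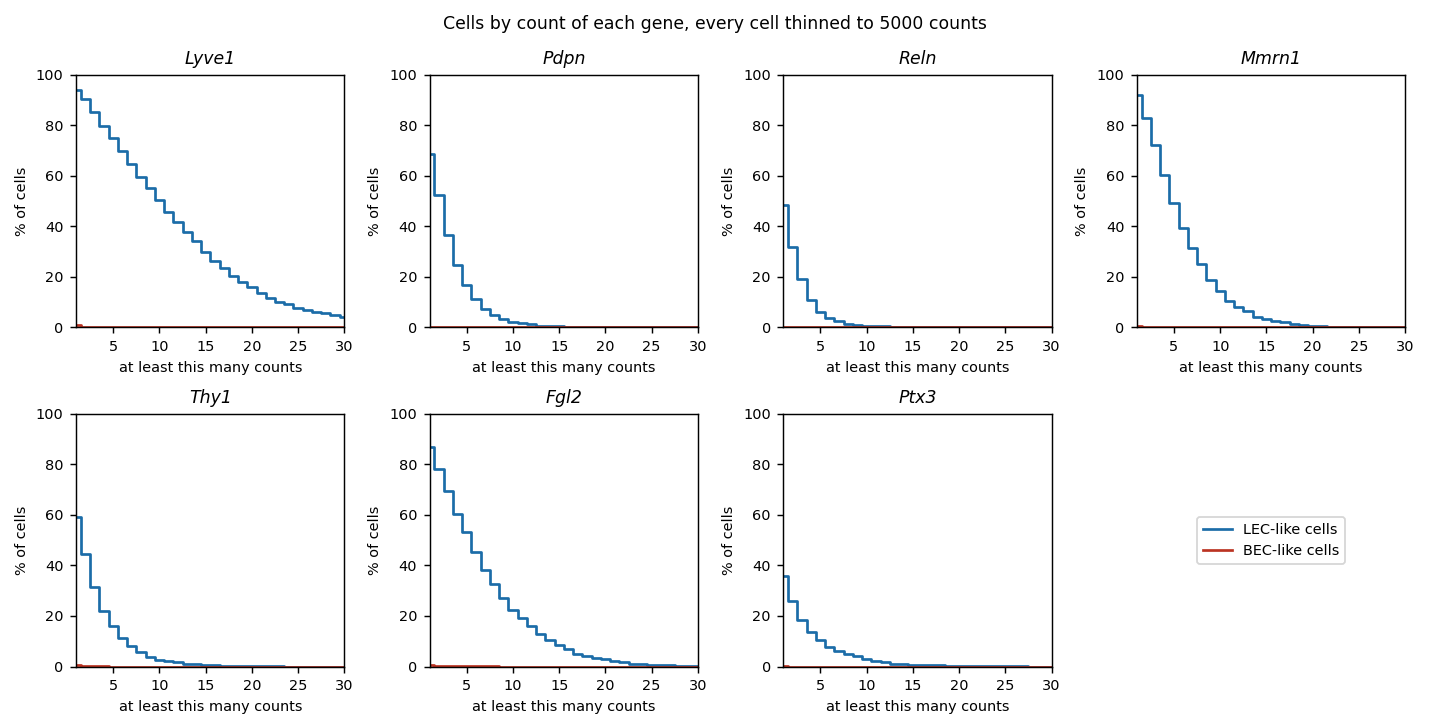
Share of cells (%) with at least the given number of counts of each gene after thinning to 5000 counts, for LEC-like and BEC-like cells, each from its own sort. At 1 count Lyve1 was seen in 94.0% and Ptx3 in 35.6% of LEC-like cells, and the BEC-like lines lie below 1% in every panel.

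Most LEC-like cells carried several of the genes at once. The median cell had counts of 5 of the 7 after thinning, 223 cells (6.35%) had all 7, 87.9% had at least 4 and 1 cell had none. Of the BEC-like cells, 97.0% had none and 2 cells had 4 or more.

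The lymphatic cells of the LEC sort fell into 6 LEC-like clusters and 3 unnamed ones. The leading genes, which define the clusters and are no result, were Cenpf, Prc1, Ube2c, Top2a and Cdc20 in cluster 5 (173 cells, cycling), Postn, Lsr, Cmah, Mfap2 and Duoxa2 in cluster 11 (691 cells), and Cd24a, Scn3a, Gpm6a, G0s2 and Tbx1 in cluster 12 (1089 cells). They were Tppp3, Pcp4l1, Fndc1, Igfbp5 and Abi3bp in cluster 13 (766 cells), Nmb, Gap43, Ttyh1, Ggct and Fam20a in cluster 14 (699 cells) and Cd74, H2-Eb1, H2-Aa, H2-DMb1 and H2-Ab1, genes of antigen presentation, in cluster 15 (94 cells). Cluster 16 (281 cells), led by Npy, Nipal1, Trdc, Pgf and Hk2, and cluster 17 (89 cells), led by Ccl2, Ccl7, Fst, Vcam1 and Tslp, stayed unnamed because a macrophage gene (Cd68) and a fibroblast gene (Dcn) were among their leading genes. Cluster 18 (42 cells) also stayed unnamed. It had a median of 6487.5 counts and 0.0440% mitochondrial counts, against 2.09% to 3.82% in the others. The clusters are groups of cells of 1 sample, so their differences have no replicate check. Under the other clustering settings the lowest overlap of a cluster with its best match (Jaccard index) ran from 0.0985 for cluster 15 to 0.738 for cluster 5.

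Ptx3 and Fgl2 had the widest ranges among the 5 LEC-like clusters of at least 100 cells, and the range of Fgl2 rested on the cycling cluster. Ptx3 was highest in cluster 14, at 657 CPM (629 to 687), and lowest in cluster 12, at 126 CPM (116 to 137), a 5.21-fold range. It was the only one of the 7 with a range of 4-fold or more, which 7.51% of 3847 genes had, and at a clustering resolution of 0.5 its range was 3.45-fold. Fgl2 was highest in cluster 11, at 1453 CPM (1412 to 1495), and lowest in the cycling cluster 5, at 404 CPM (369 to 440), a 3.60-fold range. Without the cycling cluster the range of Fgl2 was 1.94-fold, below the 2.20-fold of Lyve1 and the 1.98-fold of Thy1, and that of Ptx3 was still 5.21-fold. The ratio of Fgl2 to Ptx3 was 10.8 in cluster 11 and 9.11 in cluster 12, but 1.14 in cluster 14 and 0.944 in cluster 5. In cluster 14, Lyz2 led a macrophage list that summed to 218 CPM, against 26.5 to 55.4 CPM in the other LEC-like clusters, and a platelet list summed to 139 CPM, against 9.85 to 29.7 CPM. At resolution 2, 42 cells of cluster 14 formed a platelet-like cluster led by Lyz2, Ppbp and Pf4. Without them Ptx3 in cluster 14 stood at 669.6 CPM (639.6 to 701), the macrophage list at 101 CPM and the platelet list at 28.9 CPM.

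The other genes differed less. Lyve1 was highest in cluster 13, at 2941 CPM, next in cluster 14, at 2786 CPM, and lowest in cluster 11, at 1337 CPM, a 2.20-fold range. No neighbouring counting intervals overlapped from cluster 13 down to cluster 5, at 1682 CPM. Such intervals leave out the spread between cells, so the order of the clusters was not tested. Thy1 had a 2.02-fold range. Its levels in clusters 5, 14, 12, 13 and 15 ran from 498 down to 440.4 CPM with overlapping intervals, and cluster 11 stood apart at 246 CPM (229 to 264). Reln was level in clusters 12 to 15, at 253 to 263 CPM, and lower in clusters 11 and 5, at 178 and 142 CPM. Pdpn ranged from 365 CPM in cluster 12 to 589 CPM in cluster 13, and Mmrn1 from 708 CPM in cluster 5 to 1089.7 CPM in cluster 13. The median range of the 7 was 2.02-fold, against 1.47-fold over all genes tested.

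**Figure D2:**
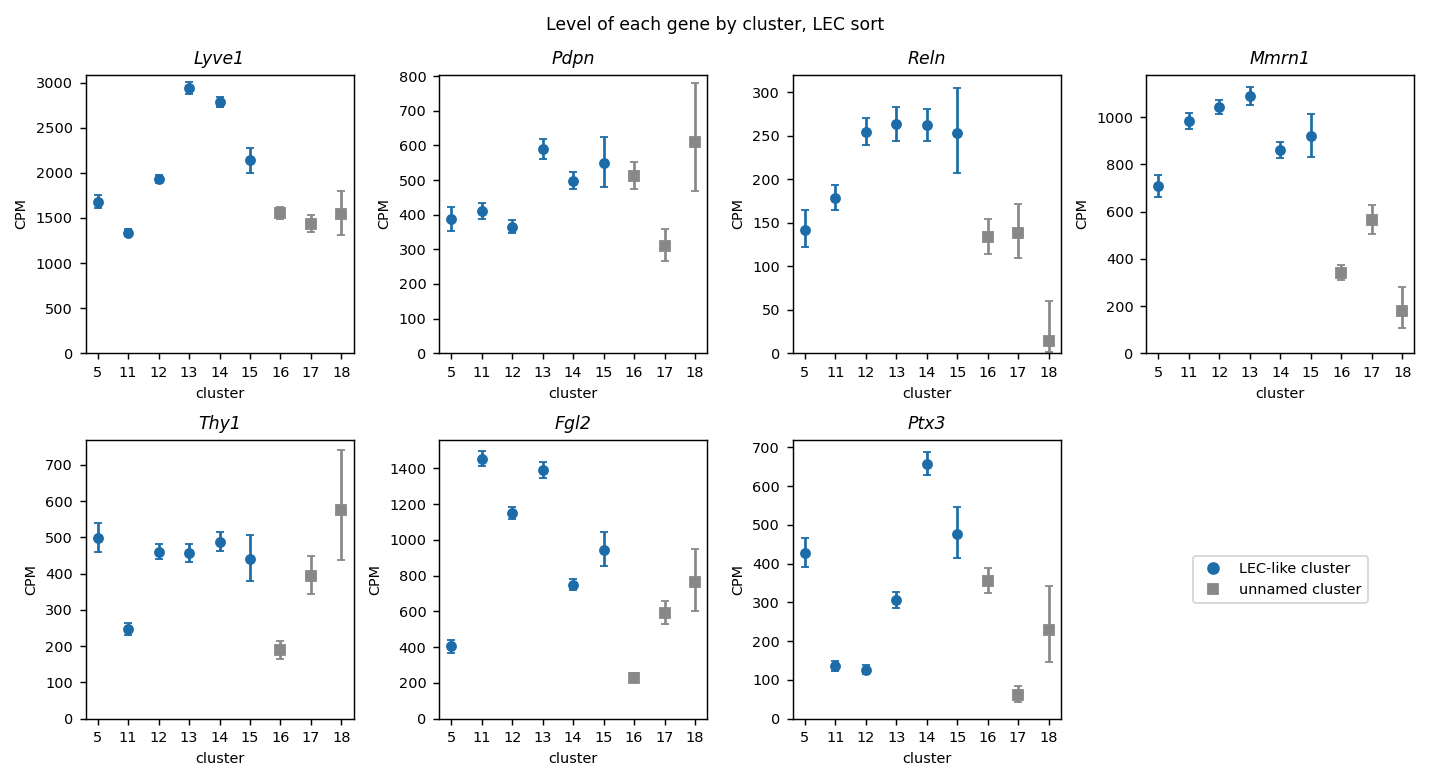
Level (CPM) of each gene in the LEC-like clusters (circles) and unnamed clusters (squares) of the LEC sort, with 95% counting intervals as bars. Ptx3 peaks in cluster 14 at 657 CPM, Fgl2 in cluster 11 at 1453 CPM and Lyve1 in cluster 13 at 2941 CPM.

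The unnamed clusters departed from this pattern. In cluster 16 a hypoxia list summed to 8843 CPM, against 1200.4 to 2285 CPM in the LEC-like clusters, and macrophage genes to 204 CPM. There Fgl2 was 0.204 times its level in LEC-like cells (0.181 to 0.229), Mmrn1 0.352 times and Thy1 0.447 times, while Pdpn and Ptx3 were 1.14 and 1.18 times. In cluster 17 the inflammatory list summed to 24494 CPM, against 1118 to 2812 CPM in the LEC-like clusters, and Ptx3 had 60.3 CPM, 0.200 times its LEC-like level (0.139 to 0.279), with Thy1 at 0.933 times (0.813 to 1.07). In cluster 18 Reln had 13.7 CPM (0.872 to 60.6), below its 133 to 263 CPM in the other 8 clusters, and Mmrn1 had 178 CPM. The low mitochondrial share, the hypoxia genes and the other markers were not tested for their part in these levels. Over all 9 clusters, those under 100 cells included, the range was 10.9-fold for Ptx3, 6.40-fold for Fgl2, 6.13-fold for Mmrn1 and 19.2-fold for Reln. The ranges of Reln and Mmrn1 rested on cluster 18, without which they were 1.98-fold and 3.19-fold.

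Across the 3512 LEC-like cells the 7 genes were only weakly related, and the values are descriptions of cells that share 1 sample. Over 21 pairs, Pearson's r of the log thinned counts ran from -0.16 to 0.21, and 8 pairs reached 0.1. Mmrn1 and Fgl2 had 0.21, Reln and Mmrn1 0.21, and the second pair had 0.20 within clusters. Fgl2 and Ptx3 had the lowest value, -0.16, and -0.09 within clusters. Ptx3 was seen in 34.0% of cells with Fgl2 and in 46.6% of cells without it. Reln was seen in 49.7% of cells with Mmrn1 and in 31.4% without. Among the 211 cells with no Lyve1 after thinning, 14.7% had Ptx3, against 1221 of the 3301 cells with Lyve1. The r of Lyve1 and Ptx3 was 0.14, and 0.05 within clusters.

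**Figure D3:**
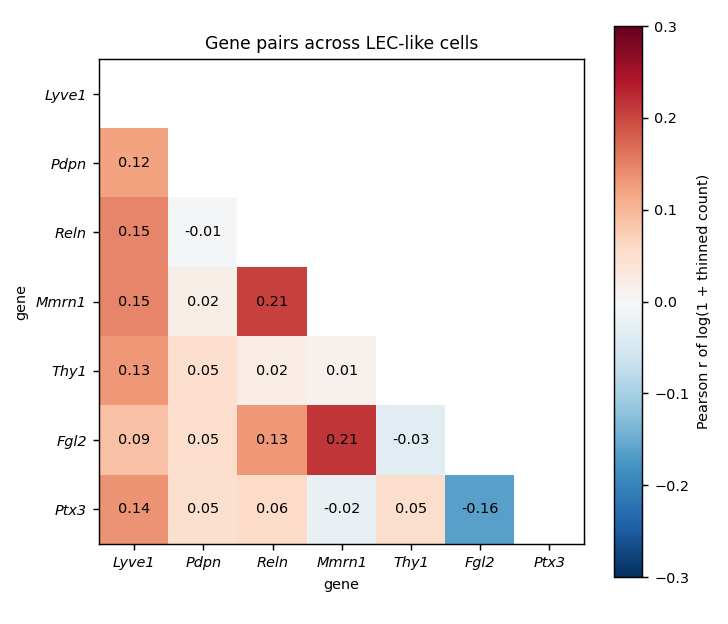
Pearson's r of log(1 + thinned count) for each pair of the 7 genes across 3512 LEC-like cells. The highest value is 0.21 and the lowest, for Fgl2 and Ptx3, is -0.16.

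Other genes that followed each of the 7 most closely were ranked by the same r over 5972 genes. Ptx3 went with Igfbp4 (0.33), Gap43 (0.28), Ggct (0.28), Mest (0.24) and Mmp14 (0.24), and opposite to Serpine2 (-0.32) and Fxyd6 (-0.30). Fgl2 went with Lrg1 (0.31), Fth1 (0.28), Ifitm3 (0.28), Timp3 (0.27) and Lbp (0.26), and opposite to Fn1 (-0.23) and Angpt2 (-0.21). Lyve1 went with Mgll (0.28), Nmb (0.24), Ctsb (0.22), Gpihbp1 (0.19) and Adgrg3 (0.19), and opposite to Plvap (-0.26) and Tm4sf1 (-0.24). Thy1 went with Atp5o (0.24), Puf60 (0.20), Cox7b (0.18), Cox6a1 (0.17) and Ftl1 (0.17), and opposite to Fth1 (-0.14) and Clu (-0.13). For Pdpn, Reln and Mmrn1 no gene exceeded 0.17. Their closest were Slc39a1 (0.15), Actb (0.14), Ccl21a (0.13), Htr2b (0.11) and Cbx3 (0.10) for Pdpn, Stab1 (0.14), Ccl21a (0.13), Timp3 (0.12), Ltbp4 (0.11) and Dlg1 (0.11) for Reln, and Cp (0.17), Malat1 (0.16), Timp3 (0.16), Ltbp4 (0.15) and Stab1 (0.14) for Mmrn1. Among their lowest were Cd24a and Egr1 for Pdpn, S100a10 for Reln and Pfn1 for Mmrn1. Such weak values in sparse counts are no finding.

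Partners known for each protein were read from fixed lists, where 11.7% of all genes tested were at least 2-fold higher in the LEC sort and 8.76% in the BEC sort. Of the 9 hyaluronan genes listed for Lyve1, 5 reached 10 CPM and 2 were at least 2-fold higher in the LEC sort. Stab1, a scavenger receptor, had 339 CPM in LEC against 126 CPM in BEC, and Hyal2, a hyaluronidase, 142 and 115 CPM. Cd44, the other hyaluronan receptor counted as higher, had 31.5 CPM in LEC against 7.76 CPM in BEC, but 3.12 CPM in LEC-like and 4.82 CPM in BEC-like cells. Of the 10 genes for Pdpn, 8 reached 10 CPM and 4 were higher in the LEC sort, among them Cd9, a tetraspanin, at 2914 CPM and 626 CPM. Ccl21a, the CCR7 ligand that binds podoplanin, had 21397 CPM and 86.2 CPM, but its near-identical gene copies make the count uncertain. For Reln, 5 of 8 reached 10 CPM, with 2 higher in each sort. Adamts5, a protease that cleaves reelin, had 122 CPM in LEC against 27.3 CPM in BEC, and the integrin Itgb1 269 and 291 CPM.

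Mmrn1 and its relative Mmrn2 went opposite ways. Mmrn2, a multimerin of blood endothelium, had 102 CPM in LEC against 476 CPM in BEC, 4.67-fold higher in BEC (4.46 to 4.88), and Emilin1 97.5 and 35.2 CPM. Of the 6 genes listed for Mmrn1, 4 reached 10 CPM, with 2 higher in the LEC sort and 1 in the BEC sort. For Thy1, 4 of 9 reached 10 CPM, with 2 higher in the LEC sort and 1 in the BEC sort. The 2 were the integrin Itgav, at 57.7 and 19.7 CPM, and the syndecan Sdc4, at 32.6 and 2.23 CPM. Of the Sdc4 counts in the LEC sort, 51.7% lay in the melanocytic-like cells. The Sdc4 level in LEC-like cells was below that of the whole LEC sort, but 12.1 times that of BEC-like cells. For Fgl2, Fcgr2b alone of 5 reached 10 CPM, at 21.7 CPM in LEC against 0.0841 CPM in BEC. However, 93.0% of its LEC sort counts lay in the melanocytic-like cells, and LEC-like cells had 1.89 CPM. Fgl1 had 0.725 CPM in LEC against 0.112 CPM in BEC, with 88.4% of its LEC sort counts in the melanocytic-like cells and 0.118 CPM in LEC-like cells. For Ptx3, 3 of 9 reached 10 CPM, with 2 higher in LEC and 1 in BEC. Fcgr2b was again among those higher in LEC, with 1.89 CPM in LEC-like cells.

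Much of the background in the BEC sort lay in few cells. The 26 LEC-like cells held 83.3% of the Reln counts of that sort, 72.0% of Mmrn1, 70.5% of Pdpn, 59.6% of Lyve1 and 52.2% of Ptx3. Thy1 was different: 67.6% of its 590 counts lay in 36 stromal-like cells, of which 27 had a count. Fgl2 was spread more widely, with 35.8% in the LEC-like cells, 28.0% in cluster 7 and 13.9% in 22 melanocytic-like cells. Cluster 7, led by Ackr1, Sele, Tagln, Hdc and Selp, had Fgl2 counts in 49 of 379 cells (12.9%), against 2.28% of BEC-like cells, at median depths of 19611 and 19426 counts. Its Fgl2 level, 23.4 CPM, was 11.1 times that of BEC-like cells (7.61 to 16.2). The highest single cell held 32.1% of the Reln counts of the BEC sort, and for Ptx3 28.4%. Without LEC-like and non-endothelial cells the summed level of the 7 genes in the BEC sort was 10.9 CPM, against 32.5 CPM with them.

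**Figure D4:**
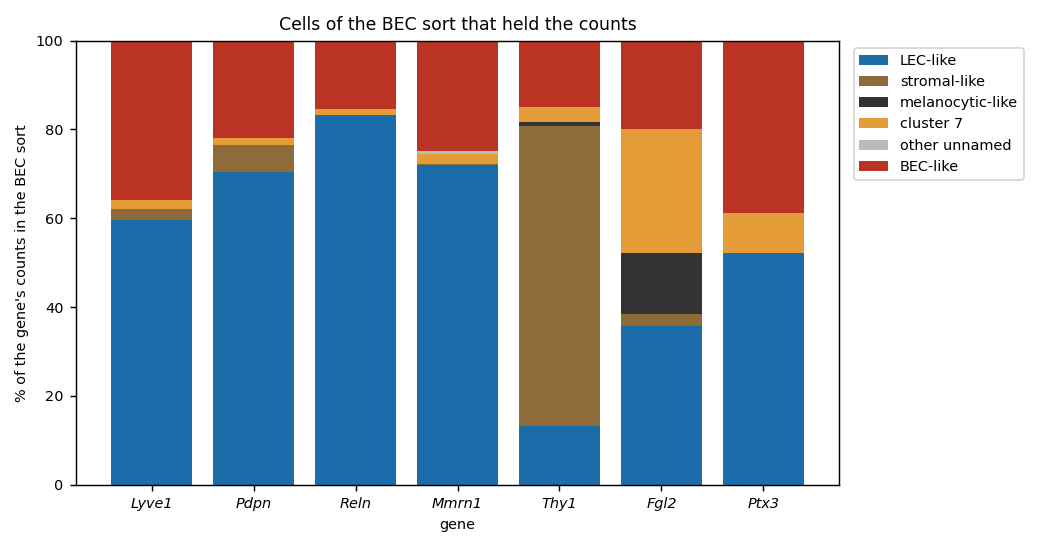
Share (%) of each gene's counts in the BEC sort that lay in each class of its cells. LEC-like cells held 83.3% of Reln counts, and stromal-like cells 67.6% of Thy1 counts.

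Among the other cells of the LEC sort, Fgl2 stood out in the melanocytic-like cells and Thy1 in the stromal-like cells. In 94 BEC-like cells of that sort the 7 genes stood at 3.56% to 9.47% of their LEC-like level. In the 369 melanocytic-like cells Lyve1 stood at 9.19%, Mmrn1 at 11.2% and Ptx3 at 11.1%, and Pdpn, Reln and Thy1 between 8.48% and 12.9%. Fgl2 stood at 55.3% (52.7% to 57.9%), or 615 CPM, with a count in 311 cells. In 10 stromal-like cells Thy1 stood at 71.3% (46.8% to 104%), Ptx3 at 34.5% (15.9% to 65.1%), with 88.5% of its counts in 1 cell, and the other 5 genes at 11.9% to 21.3%. In the 22 melanocytic-like cells of the BEC sort, Lyve1, Pdpn, Reln, Mmrn1 and Ptx3 had 0 counts and Thy1 had 5, while Fgl2 had 91 counts in 13 cells. Of the markers of other cells, T and NK cell genes summed to 1.94 CPM in LEC-like cells and 0.895 CPM in BEC-like cells, with Cd3e at 0 in both. Fibroblast genes summed to 149 CPM and 2.23 CPM, 142 CPM of it Dcn, and platelet genes to 39.6 CPM and 23.8 CPM. Without the 42 platelet-like cells the platelet list summed to 17.8 CPM in LEC-like cells, and Mmrn1 stood at 973 CPM, against 971 CPM with them. The part of the fibroblast genes in the Thy1 level was not tested.

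**Figure D5:**
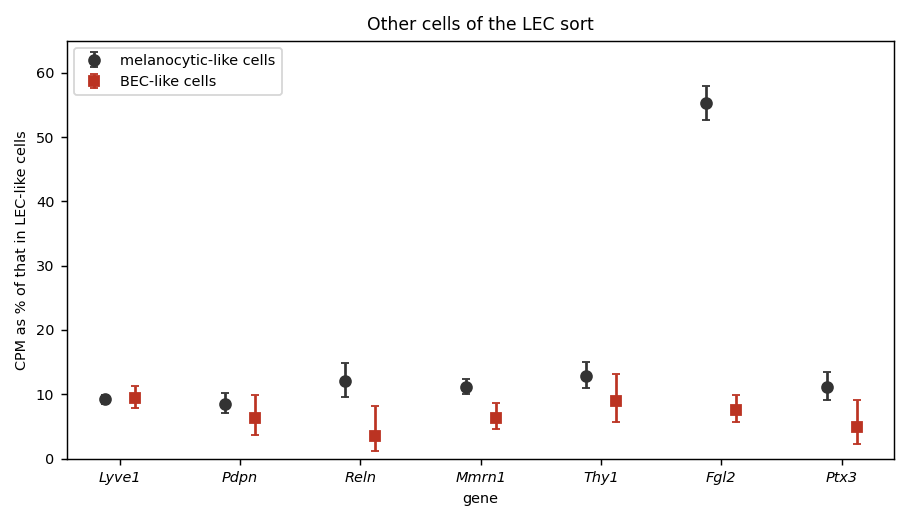
Level of each gene in the melanocytic-like and BEC-like cells of the LEC sort, as % of its CPM in LEC-like cells, with 95% counting intervals as bars. Fgl2 in melanocytic-like cells stands at 55.3%, and every other value lies between 3.56% and 12.9%.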

How the data were processed

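The authors deposited unnormalized counts in 1 matrix with 28692 genes in 7635 cells. The submitters' processing notes name Cell Ranger 2.1.1 and the mm10 build, and no source used here gives a filter on cells. The deposited counts rise in steps of up to 4. Exact Poisson and conditional binomial intervals (95%) on counts were therefore computed after division by a step ratio. It is the ratio of the second to the first moment of these steps, 2.82 in LEC and 2.59 in BEC. Clopper-Pearson intervals (95%), used for shares of cells, were not divided. Counts were summed per sort and scaled to CPM, where 1 count was 0.0169 CPM in LEC and 0.0140 CPM in BEC. Log2 ratios used a pseudocount of 1 CPM. Cells of both sorts were clustered without the 7 genes (2000 variable genes, 30 components, 15 neighbours, Leiden resolution 1; Python 3.11.15 with scanpy 1.11.5, scipy 1.17.1, numpy 2.4.6, igraph 0.11.9 and scikit-learn 1.9.0). A cluster was named if at least 3 leading genes were markers of a non-endothelial type, or at least 3 endothelial markers were seen in 50% of its cells. A cluster with more leading markers of another class stayed unnamed. No doublet caller was run and no doublets were removed. The text names the 7 genes, the 5 closest and 2 least close genes of each, the 5 leading genes of each cluster and the 2 highest partners in LEC of each list. Cd44, the platelet-like cells and the cells that hold Fcgr2b, Fgl1 and Sdc4 were singled out after their values were seen. The values of 2 genes that the rule names are not reported here. The members and lists were chosen with earlier results of these data known. The scripts for ratios, intervals and spread were tested on simulated data.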

Additional observations from a re-analysis of the deposited data

Results flagged for a closer look

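Fgl2 stood at 615 CPM (588 to 643) in the 369 melanocytic-like cells of the LEC sort. These cells lay outside the comparison of LEC-like with BEC-like cells. The total of the LEC sort included them, and they held 10.1% of its Fgl2 counts. Their Fgl2 level was above the 109 CPM of the 22 melanocytic-like cells and the 2.12 CPM of the BEC-like cells in the BEC sort. No test was possible with 1 sample per sort.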

How the results depend on the processing

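No paired analysis was possible because the column names carry no library number, and leaving out a library was not possible for the same reason. All 7 genes stayed at least 2-fold higher in LEC with size factors, which shifted all genes by 0.08 on the log2 scale, with own-type cells, without a filter and at a filter of 50 CPM. With the count steps taken off, an alternative chosen after seeing the data, 1 gene instead of 3 had an excess squared coefficient of variation of at least 1. The number of genes with a 4-fold range between clusters was 1, but 0 at resolution 0.5, 2 at resolution 2 and 2 with the unnamed cluster of at least 100 cells kept. Leaving out the cycling cluster or the platelet-like cells kept it at 1. These last 3 alternatives were also chosen after seeing the data. The median share of cells with a count was 68.4%, against 77.4% without thinning, 47.9% when thinned to 2000 and 62.1% over all cells of the LEC sort. The summed BEC level was 10.9 CPM instead of 32.5 CPM without LEC-like and non-endothelial cells. Pairs with r of at least 0.1 numbered 4 instead of 8 when thinned to 2000. The cause of these moves was not tested. The other 16 alternatives for these counts stayed within 1.5 times. For single genes and pairs, 140 values kept their side of the threshold or their sign and 7 did not, though some moved by over 1.5 times, such as the range of Fgl2, 1.94-fold without the cycling cluster against 3.60-fold, of Ptx3, 9.28-fold at resolution 2 against 5.21-fold, and of Mmrn1, 3.19-fold with the unnamed cluster against 1.54-fold. After thinning, 1818 and 2260 of 3512 LEC-like cells had no count of Reln and Ptx3, which limits what can be said of single cells.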
